A study of Homo sapiens with 6 samples.

Results

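The genes for the cytoplasmic translation initiation and elongation factors were examined after silencing of PSF. Members were chosen by symbol alone, as protein-coding rows whose name starts with EIF and a digit from 1 to 6 or with EEF1 or EEF2. This gave 69 of the 21301 rows of the table, enzymes and partner proteins with such names included. PSF, encoded by SFPQ, is an RNA-binding protein of the nucleus. SH-SY5Y, a human neuroblastoma cell line, received either siControl or siPSF at 10 nM for 72 h, with 3 libraries in each group. By the study's legend the libraries are biological triplicates. A single siRNA sequence (siPSF #2) and a single cell line were used, so an effect of PSF and another effect of that siRNA cannot be told apart. Poly(A) RNA was sequenced, from RNA of high integrity by the methods. The level of SFPQ in siPSF was 0.502 times that in siControl (log2 fold change -0.99, standard error 0.10, edgeR adjusted p = 9.5e-05).

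Levels are given as counts scaled to library size (CPM) after edgeR's TMM scaling. Between genes, levels are compared mainly as FPKM, which divides by exonic length. Fold changes, siPSF against siControl, come from the quasi-likelihood test of edgeR on the 19694 genes left by its filter on low counts. A gene was called where its Benjamini-Hochberg adjusted p, over all of these, was under 0.05. The library totals ran from 101540520 to 132420931 counts. Of 12 markers of sympathetic neuroblastoma, 11 were over 1 CPM, and TH was under it, at 0.741 CPM in the controls and 0.320 CPM in siPSF. These markers summed to 6107 to 6852 CPM in siControl and 5564 to 6810 CPM in siPSF, with GATA3 called higher and TH and DBH called lower. Markers of astrocytes, microglia, fibroblasts and epithelia summed to 12.8 to 14.4 CPM and 12.1 to 15.1 CPM, with EPCAM called higher (log2 fold change 0.86, edgeR adjusted p = 0.014) and COL3A1 called lower (-0.71, edgeR adjusted p = 0.047), and 4 of the 10 were not in the table. The part of these markers in the results was not tested. In bulk RNA a change in the mix of cells and a change per cell cannot be told apart.

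In translation initiation, eIF2 brings the initiator tRNA to the small ribosomal subunit, eIF3 is the large scaffold that holds the initiation complex together, and the eIF4 factors bind the cap of the mRNA and unwind its leader. eIF2B recharges eIF2 with GTP, and the eIF2 kinases stop this recharging under stress. In elongation, eEF1A delivers aminoacyl-tRNAs to the ribosome, the eEF1B subunits recharge eEF1A, and eEF2 moves the ribosome along the mRNA. Many mRNAs of the translation machinery, above all those of ribosomal proteins, begin with a C and a run of pyrimidines, the 5′ terminal oligopyrimidine tract, through which mTOR signaling is known to control their translation.

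The annotated first bases of the members are shown because such a run was found in 11 of the 16 called members with an entry in the RefSeq start table used. The other called members had no entry there, so their first bases were not examined. In EEF1B2 the run was found only at an annotated start inside the gene. Each line holds 30 bases of the sense strand of GRCh38.p14 from the RefSeq start table, 15 before the annotated start and 15 from it on. Capitals mark the first base when it is not the start of such a run, and otherwise the first C with the pyrimidines that follow it. A pyrimidine start was scored where the first base was C and at least 4 bases that are each C or T followed. The first 7 lines are members called higher in siPSF.
EEF1A1, chr6:73521018-73521047, minus strand: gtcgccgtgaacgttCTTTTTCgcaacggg
EEF2, chr19:3985449-3985478, minus strand: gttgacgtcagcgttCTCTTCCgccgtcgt
EIF3D, chr22:36529152-36529181, minus strand: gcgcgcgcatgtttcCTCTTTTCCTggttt
EIF3M, chr11:32583816-32583845, plus strand: gcgcggcccagttccCTTTTCCggtcggcg
EIF2S3, chrX:24054941-24054970, plus strand: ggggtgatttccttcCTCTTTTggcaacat
EIF4A2, chr3:186783562-186783591, plus strand: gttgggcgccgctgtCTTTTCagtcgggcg
EIF4B, chr12:53006441-53006470, plus strand: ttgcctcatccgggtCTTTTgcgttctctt
The next 5 lines are for contrast. EIF4A1, EIF3B and EIF2B5 were not called and lack a pyrimidine start in the bases shown. EEF1G was called and lacks one, and EIF2D was not called and has one. For EIF3B the start shown lies inside the gene, whose annotated 5′ end is at chr7:2354086. The bases at that end were not examined.
EIF4A1, chr17:7572810-7572839, plus strand: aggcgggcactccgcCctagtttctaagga
EIF3B, chr7:2354812-2354841, plus strand: ccccgtcgcacgcacAtggctgggctgtag
EIF2B5, chr3:184135343-184135372, plus strand: ggtggcagcttccttGcggaagtggtgacc
EEF1G, chr11:62573877-62573906, minus strand: tctcccgggcggcttActttgcggcagcgc
EIF2D, chr1:206612451-206612480, minus strand: ggtttccagccgggcCCTTTTCgcggccgg
The annotated transcript of EIF4A1, the close paralog of EIF4A2, starts with a C too, but with fewer than 4 pyrimidines after it.

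After PSF silencing 24 of the 68 members tested rose, none fell and 44 were not called. Over all tested genes 6.65% were called higher, 8.27% lower and 14.9% in either direction (6.72% higher and 8.58% lower among protein-coding genes alone), so 35.3% of the members stood against 6.65% of all genes. Called members were mostly abundant genes, with a median of 305 CPM against 80.5 CPM for those not called. Among protein-coding genes of at least 100 CPM 9.71% were called higher and 7.88% lower, and 21 of the 39 members of that level were. At an unadjusted p under 0.05 there were 29 members, all of them higher, beside 14.4% of all tested genes higher and 15.4% lower. The median log2 fold change was 0.12 over the members and 0.01 over all tested genes. In 30 members every siPSF library lay above every siControl library, which held for 16.7% of all tested genes; without overlap in either direction there were 33 members and 34.4% of all tested genes. The called rises were moderate, from 1.24-fold in EIF2S1 to 1.72-fold in EIF4B. The member not tested was EIF4EBP3, which has almost no counts. Of the 24 calls, 17 were made again in each of the 6 fits that left out 1 library, and 15 under each of the 12 alternative analyses. On FPKM rescaled to equal sums, where the median log2 fold change of all genes was -0.16, limma called 15 of 65 members higher (23.1%, against 3.12% of all genes), all of them among the 24. There it called 8 others lower (12.3%, against 23.0% of all genes), namely EIF4EBP1, EIF4EBP2, EIF4G1, EIF5A, EIF6, EIF2B2, EEF2K and EEF1AKMT1. On every scale used all 24 lay above the median of all genes. None of the 24 was among the 21 members whose sign turned on rescaled FPKM.

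The 69 genes together took 2.62% to 2.85% of all counts in siControl and 3.39% to 3.61% in siPSF. EEF1A1 alone took 0.764% to 0.848% and 1.13% to 1.21%. Without it the members still took 1.85% to 2.0% in siControl and 2.26% to 2.40% in siPSF, so that the groups did not overlap on any of these shares.

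**Figure D1:**
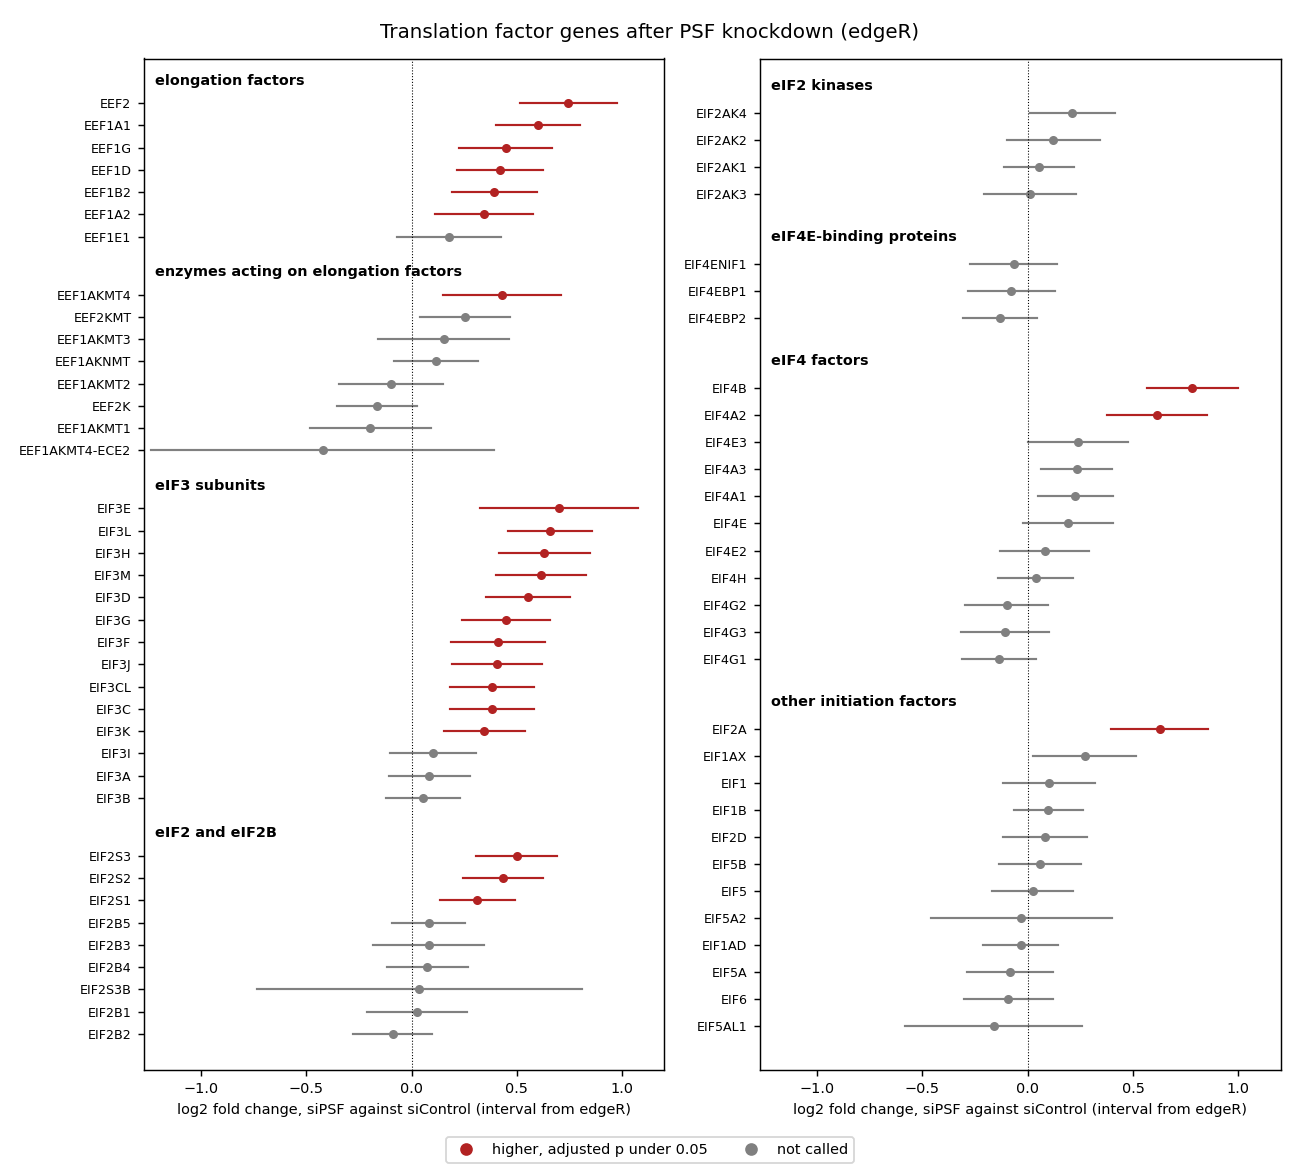
Log2 fold change of each of the 68 tested members, siPSF against siControl (x axis), with its 95% interval from edgeR, by group of factors. Red points are the 24 genes called higher and gray points the 44 not called. The red points gather in the elongation factors (6 of 7) and the eIF3 rows (11 of 14, EIF3C and EIF3CL both counted). The eIF2B subunits, the eIF2 kinases and the eIF4E-binding proteins hold none. On FPKM rescaled to equal sums most gray points lay below 0.

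The elongation factors rose nearly as a whole, with 6 of 7 called and a median log2 fold change of 0.42. EEF1A1, the main eEF1A gene and the most abundant member, was at 8295, 8062 and 7257 CPM in siControl and at 11494, 11865 and 12448 CPM in siPSF. The log2 fold change of EEF1A1 was 0.60 (standard error 0.09, edgeR adjusted p = 0.0012), and the lowest siPSF library stood well above the highest siControl library. EEF2, the translocase, had the largest rise of the group. It was at 2864, 2841 and 2438 CPM in siControl and at 4030, 4594 and 5005 CPM in siPSF. The log2 fold change of 0.74 (standard error 0.11, edgeR adjusted p = 0.00083) corresponds to 1.67-fold. In both genes siControl replicate 3 was the lowest control and siPSF replicate 3 the highest library.

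The subunits of the eEF1 exchange complex moved with EEF1A1. EEF1G, the gamma subunit, was at 2147, 2265 and 1818 CPM in siControl and at 2702, 3049 and 2738 CPM in siPSF (log2 fold change 0.45, edgeR adjusted p = 0.012). EEF1B2, a catalytic exchange subunit, rose from 637 to 836 CPM on average (0.39, edgeR adjusted p = 0.015). EEF1D, the other catalytic subunit, rose from 191 to 256 CPM (0.42, edgeR adjusted p = 0.011). For none of these 3 genes did the groups overlap. EEF1A2, the form of eEF1A typical of neurons and muscle, was at 504, 503 and 396 CPM in siControl and at 584, 641 and 556 CPM in siPSF. Its log2 fold change was 0.34 (edgeR adjusted p = 0.048), and the call was lost without siControl replicate 2, siControl replicate 3, siPSF replicate 1 or siPSF replicate 2, where the adjusted p reached 0.14. EEF1E1, which encodes a partner of the aminoacyl-tRNA synthetase complex rather than an elongation factor, was not called (0.18, 95% interval -0.071 to 0.426).

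The enzymes that modify the elongation factors did not share this rise as a group, at a median log2 fold change of 0.01. Of 8 genes 1 was called higher (12.5%, beside 6.65% of all tested genes). EEF1AKMT4, a lysine methyltransferase of eEF1A, was at 10.0, 12.3 and 8.91 CPM in siControl and at 13.1, 14.2 and 14.7 CPM in siPSF (0.43, edgeR adjusted p = 0.043). This call was made again only without siControl replicate 2; without any other library it was lost, with an adjusted p of up to 0.14. Its row shares an annotated start with the readthrough gene EEF1AKMT4-ECE2, so reads of the pair are uncertain. EEF2K, the kinase that inhibits eEF2, was at 33.9, 34.3 and 36.1 CPM in siControl and at 30.2, 30.3 and 32.5 CPM in siPSF. The groups did not overlap, but the log2 fold change of -0.17 (95% interval -0.356 to 0.025) was not called (edgeR adjusted p = 0.23). EEF2KMT, a methyltransferase of eEF2, had 0.25 (edgeR adjusted p = 0.11), and EEF1AKNMT, which methylates eEF1A, had 0.11 (edgeR adjusted p = 0.44), a value that was -0.077 on rescaled FPKM.

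**Figure D2:**
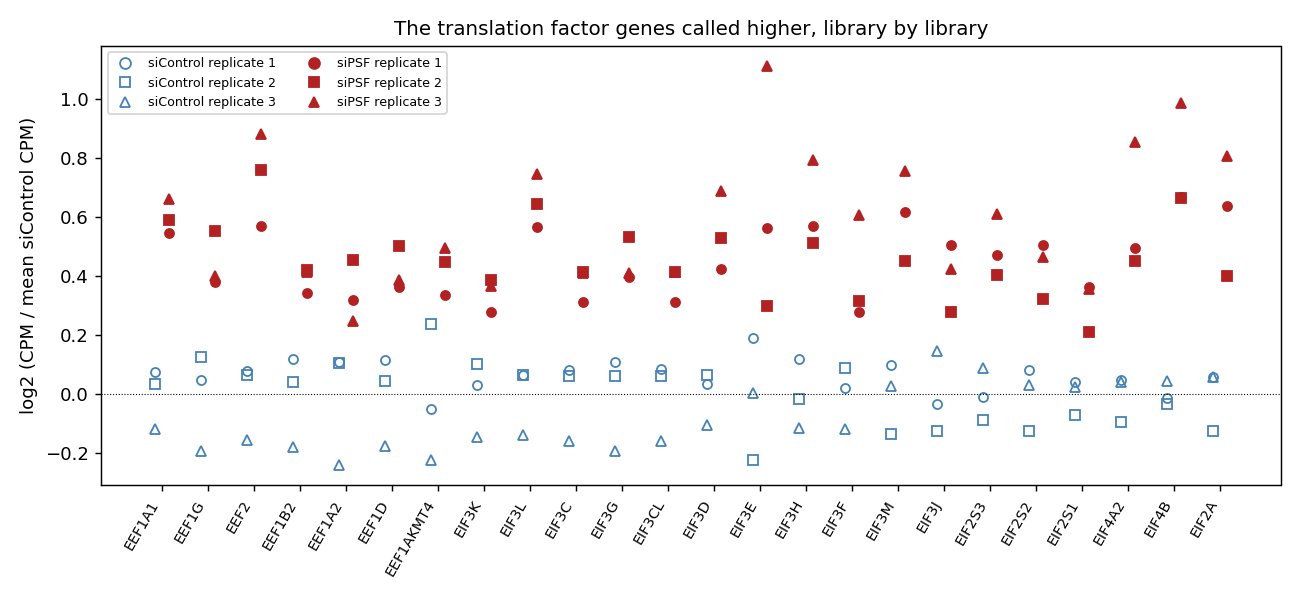
Log2 of each library's CPM over the mean siControl CPM (y axis) for the 24 genes called higher (x axis), with open blue symbols for the 3 siControl and filled red symbols for the 3 siPSF libraries. In every gene the 3 red symbols stand above the 3 blue ones. siPSF replicate 3 stands far above the other siPSF libraries in EIF3E.

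Of the eIF3 subunits, 11 of 14 rows rose, and the median log2 fold change was 0.41. EIF3L was at 561, 561 and 487 CPM in siControl and at 794, 839 and 900 CPM in siPSF. Its log2 fold change of 0.66 (standard error 0.09, edgeR adjusted p = 0.00074) had the smallest p of the group. EIF3M and EIF3H, which with EIF3L belong to the structural core of the human complex, and EIF3D, a peripheral subunit, had values near this one. EIF3M was at 138, 118 and 132 CPM in siControl and at 198, 177 and 218 CPM in siPSF (0.61, edgeR adjusted p = 0.0016). EIF3H was at 287, 261 and 244 CPM and at 392, 377 and 457 CPM (0.63, edgeR adjusted p = 0.0014). EIF3D, which can itself bind the cap of some mRNAs, was at 256, 261 and 232 CPM and at 335, 361 and 402 CPM (0.55, edgeR adjusted p = 0.0022). In these 4 genes the siPSF libraries lay apart from the siControl libraries, and the calls held in all 12 alternatives.

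EIF3E had the highest fitted log2 fold change of the subunits, 0.70, but also the widest standard error of the called members, 0.17. It was at 207, 155 and 182 CPM in siControl and at 268, 223 and 392 CPM in siPSF, so that siPSF replicate 3 stood far above the other siPSF libraries. The edgeR adjusted p of 0.018 rose to as much as 0.10 without siControl replicate 2 or siControl replicate 3, where the call was lost. EIF3G, an RNA-binding subunit near the mRNA entry, rose by 0.45 (edgeR adjusted p = 0.0085), with 268, 259 and 217 CPM in siControl and 326, 358 and 330 CPM in siPSF. EIF3F, at 282 and 375 CPM on average, rose by 0.41 (edgeR adjusted p = 0.020), a call lost without siControl replicate 3 (adjusted p = 0.077). EIF3K, a small subunit at 267 and 339 CPM, rose by 0.35 (edgeR adjusted p = 0.021), and lost its call without siControl replicate 3 or siPSF replicate 2 (adjusted p up to 0.066). EIF3J, a loosely bound subunit at 52.3 and 69.3 CPM, rose by 0.41 (edgeR adjusted p = 0.016), and lost its call without siControl replicate 2 or siPSF replicate 1 (adjusted p up to 0.098).

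EIF3C, a scaffold subunit, and its near-identical copy EIF3CL had the same log2 fold change of 0.38 (edgeR adjusted p = 0.016 for each). The count of EIF3CL was 95.0% to 95.2% of that of EIF3C in every library, so these rows cannot be told apart and are 1 observation. Counted once, they leave 23 called members. EIF3C was at 732, 721 and 619 CPM in siControl and at 857, 922 and 919 CPM in siPSF.

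EIF3A, EIF3B and EIF3I were the only subunits not called. EIF3A, the largest scaffold subunit, was at 198, 191 and 225 CPM in siControl and at 222, 204 and 226 CPM in siPSF. EIF3B was at 301, 309 and 277 CPM and at 298, 311 and 311 CPM, and EIF3I, its partner, at 497, 508 and 415 CPM and at 506, 529 and 488 CPM. Their groups overlapped. The log2 fold changes were 0.05 to 0.10, with 95% intervals that together ran from -0.123 to 0.306, below the fitted values of all 11 called rows. The lowest interval limit of those 11 rows was 0.154, so the intervals of called and uncalled rows overlapped. On rescaled FPKM the log2 fold changes were -0.10 for EIF3A, -0.13 for EIF3B and -0.092 for EIF3I, with all 3 still above the all-gene median there. The difference between these subunits and the others was not tested, and EIF3G, which forms a core with them in yeast, was among the called rows.

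The genes of eIF2 rose while those of eIF2B were not called. EIF2S3, the gamma subunit that holds the initiator tRNA, was at 220, 208 and 236 CPM in siControl and at 307, 293 and 338 CPM in siPSF (log2 fold change 0.50, standard error 0.09, edgeR adjusted p = 0.0029). EIF2S2, the beta subunit, was at 114, 98.6 and 110 CPM and at 153, 135 and 148 CPM (0.43, edgeR adjusted p = 0.0065). EIF2S1, the alpha subunit that the eIF2 kinases phosphorylate, was at 95.7, 88.6 and 94.7 CPM and at 120, 108 and 119 CPM (0.31, edgeR adjusted p = 0.024). For all 3 subunits every siPSF library lay above every siControl library. The call of EIF2S1 was lost without siControl replicate 2 or siPSF replicate 1 (adjusted p up to 0.12).

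None of the 5 eIF2B subunits was called, at a median log2 fold change of 0.07 and with 95% intervals within -0.278 to 0.341. EIF2B5, the catalytic subunit, was at 91.3, 91.0 and 88.3 CPM in siControl and at 93.1, 102 and 91.2 CPM in siPSF. EIF2B4, the most abundant of them by FPKM, had a fitted value of 0.07 (edgeR adjusted p = 0.62), which was -0.11 on rescaled FPKM. Of these intervals that of EIF2B3 alone reached the value fitted for EIF2S1. The interval of EIF2S1 itself started at 0.134, and it overlapped those of all eIF2B subunits but EIF2B2. EIF2S3B, a copy of EIF2S3, was below 1 CPM in every library, with an interval too wide to tell (-0.735 to 0.809). The difference between the eIF2 and eIF2B genes was not tested.

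The 4 eIF2 kinases were not called, and their log2 fold changes ran from 0.01 to 0.21. EIF2AK4 (GCN2, which senses uncharged tRNA) was at 35.4, 34.0 and 38.3 CPM in siControl and at 43.5, 42.5 and 38.8 CPM in siPSF, without overlap but with an edgeR adjusted p of 0.14. EIF2AK1, the heme-regulated kinase, had 0.05, and EIF2AK2 (PKR, which senses double-stranded RNA) had 0.12; on rescaled FPKM these were -0.15 and -0.077. EIF2AK3 (PERK, the kinase of the endoplasmic reticulum) had 0.01.

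Of the 11 eIF4 factors, EIF4B and EIF4A2 rose. EIF4B, which stimulates the helicase eIF4A, had the largest log2 fold change and the smallest p of all members. It was at 240, 237 and 251 CPM in siControl and at 385, 385 and 481 CPM in siPSF (log2 fold change 0.78, standard error 0.10, edgeR adjusted p = 0.00042). EIF4A2, a helicase paralog of EIF4A1, was at 215, 194 and 213 CPM and at 292, 284 and 375 CPM (0.61, standard error 0.11, edgeR adjusted p = 0.0030). Both calls held in all 12 alternatives, and in both genes siPSF replicate 3 was the highest library.

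The other helicases of the family were not called. EIF4A1 was at 669, 656 and 617 CPM in siControl and at 742, 744 and 786 CPM in siPSF (0.23, edgeR adjusted p = 0.082). EIF4A3, a helicase of the exon junction complex rather than an initiation factor, was at 101, 103 and 94.2 CPM and at 116, 119 and 115 CPM (0.23, edgeR adjusted p = 0.062). The groups did not overlap in either gene. Neither was called in any of the 12 alternatives, and on rescaled FPKM the log2 fold changes were 0.034 for EIF4A1 and 0.055 for EIF4A3.

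The scaffold proteins of eIF4F stood on the other side of 0. EIF4G1 was at 530, 553 and 520 CPM in siControl and at 464, 507 and 488 CPM in siPSF, every siPSF library below every siControl library (log2 fold change -0.14, 95% interval -0.312 to 0.039, edgeR adjusted p = 0.29). EIF4G2, which acts without the cap-binding protein, had -0.10 (edgeR adjusted p = 0.50), and EIF4G3 had -0.11 (edgeR adjusted p = 0.50). The upper limits of these 3 intervals, at most 0.102, lay below the fitted values of all called members.

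The cap-binding proteins EIF4E, EIF4E2 and EIF4E3 had log2 fold changes of 0.19, 0.08 and 0.24 and were not called. EIF4E, the protein that binds the cap, was at 60.2, 53.5 and 61.2 CPM in siControl and at 69.6, 58.7 and 71.3 CPM in siPSF, with overlap. The values of EIF4E and EIF4E2 were below 0 on rescaled FPKM. EIF4H, which like EIF4B helps eIF4A, had 0.04 (edgeR adjusted p = 0.80), also below 0 on that scale and without siControl replicate 3.

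The proteins that hold EIF4E back were not called either, and all 3 tested had fitted values below 0. EIF4EBP1 was at 408, 401 and 327 CPM in siControl and at 354, 362 and 360 CPM in siPSF (-0.08, edgeR adjusted p = 0.63). EIF4EBP2 was at 318, 342 and 358 CPM and at 304, 310 and 315 CPM, without overlap (-0.13, 95% interval -0.307 to 0.046, edgeR adjusted p = 0.31). EIF4ENIF1, the transporter that carries EIF4E into the nucleus, had -0.07. The signs were the same in all 12 alternatives, and on rescaled FPKM the first 2 genes were among those called lower.

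Of the 12 other initiation factors 1 was called higher (8.33%, beside 6.65% of all tested genes). EIF2A, which can bring initiator tRNA to the ribosome without eIF2 and is not a subunit of it, was at 72.8, 64.1 and 72.7 CPM in siControl and at 109, 92.3 and 122 CPM in siPSF (log2 fold change 0.63, standard error 0.11, edgeR adjusted p = 0.0024). The call held in all 12 alternatives. EIF1AX, which helps to scan for the start codon, had 0.27 (edgeR adjusted p = 0.13), and was called without siPSF replicate 2 (adjusted p = 0.045). EIF1, which guards start codon choice and is the most abundant gene of this group, was at 1460, 1481 and 1281 CPM and at 1560, 1628 and 1339 CPM (0.10), and its paralog EIF1B had 0.10; both were below 0 on rescaled FPKM. EIF5A, which helps the ribosome past difficult peptide bonds, and EIF6, which keeps free large subunits apart from small ones, had -0.08 and -0.09. The values of both genes overlapped between the groups.

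**Figure D3:**
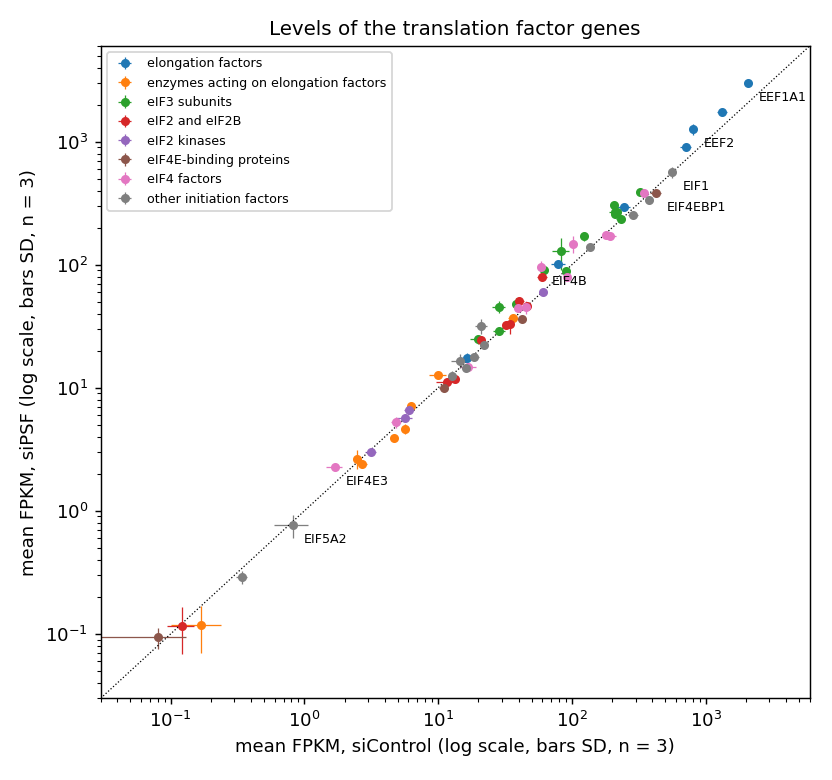
Mean FPKM in siControl (x axis) and siPSF (y axis) for the 69 members, both on log scales, with SD bars over 3 libraries and the line of equal levels. EEF1A1 stands at the top at 2086 FPKM in siControl and 2999 FPKM in siPSF, and EEF1A1, EEF1G, EEF2 and EEF1B2, all above the line, are the 4 most abundant members.

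By FPKM the members spanned a wide range of levels. EEF1A1 was at 2086 ± 99.9 FPKM in siControl and 2999 ± 98.1 FPKM in siPSF (SD, n = 3 each). EEF1G followed at 1336 ± 120 and 1727 ± 107 FPKM, EEF2 at 800 ± 52.8 and 1269 ± 126 FPKM, and EEF1B2 at 710 ± 71.8 and 907 ± 18.0 FPKM (SD, n = 3 each). In siControl the levels of EEF2 and EEF1B2 were close to each other, while in siPSF EEF2 stood clear of EEF1B2. The eIF3 subunits lay between 19.7 FPKM (EIF3J) and 323 FPKM (EIF3K) in siControl, although they join 1 complex. This spread depends on the exonic length used for each gene. In siControl EIF3F and EIF3K were at 38.0 and 323 FPKM, but at 282 and 267 CPM. The eIF2 subunits were at 59.7 (EIF2S3), 40.1 (EIF2S2) and 20.9 (EIF2S1) FPKM, and their order was the same in siPSF. EIF4EBP1 was at 426 ± 41.5 FPKM in siControl and at 383 ± 1.04 FPKM in siPSF (SD, n = 3 each), far above EIF4E at 4.86 ± 0.410 and 5.23 ± 0.546 FPKM. The gap was narrower in CPM, which leaves length out, at 378 CPM for EIF4EBP1 and 58.3 CPM for EIF4E in siControl.

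The balance between paralogs was followed as the ratio of their FPKM in each library, for 7 pairs. With 3 libraries against 3 the exact permutation test (two-sided) cannot go below p = 0.1, so no pair could pass a threshold of 0.05. EIF4A2 was 29.8% of EIF4A1 in siControl and 38.7% in siPSF, a rise of 0.38 in the log2 ratio without overlap (exact permutation p = 0.1, adjusted over the 7 pairs 0.23). EEF1A2 was 11.7% of EEF1A1 in siControl and 9.84% in siPSF, a difference of -0.25 in the log2 ratio without overlap (exact permutation p = 0.1, adjusted 0.23). For both pairs the direction was the same without each library in turn and on counts.

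The log2 ratio of EIF4E3 to EIF4E was 0.32 higher in siPSF on FPKM, without overlap (exact permutation p = 0.1), but 0.05 higher on counts (exact permutation p = 0.3). For EIF4E3 the FPKM given per count deviated by up to 22.4% from its median between libraries, so that ratio turns on the unit. For the other 4 pairs the groups overlapped. The differences were 0.06 for EIF5A2 to EIF5A, 0.02 for EIF4G3 to EIF4G1, -0.12 for EIF4E2 to EIF4E and -0.002 for EIF1B to EIF1.

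**Figure D4:**
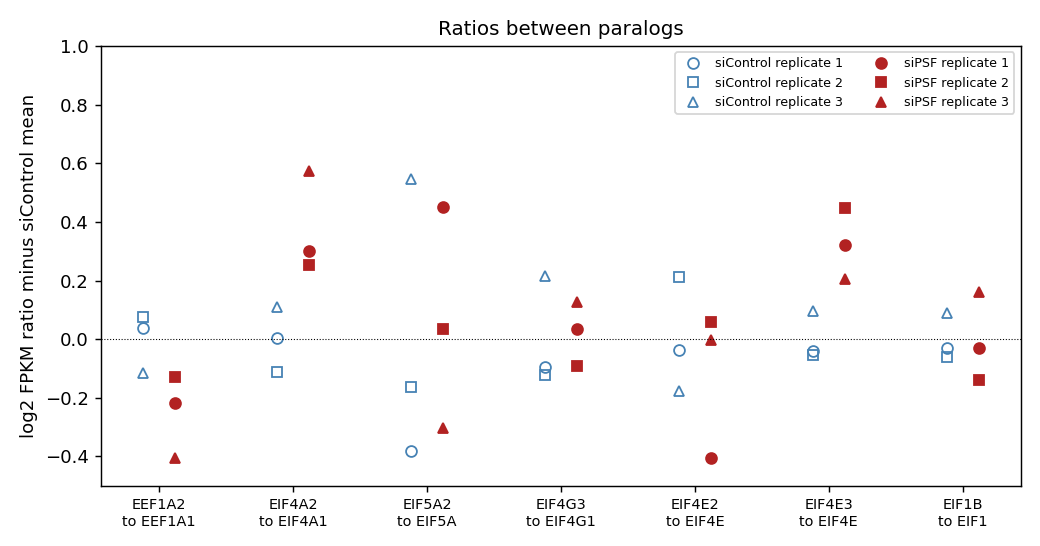
Log2 FPKM ratio of each of the 7 paralog pairs in each library, minus the mean of the siControl libraries (y axis), with open blue symbols for siControl and filled red symbols for siPSF. The groups stand apart for EEF1A2 to EEF1A1 (lower in siPSF), EIF4A2 to EIF4A1 and EIF4E3 to EIF4E (both higher); the last difference shrinks to 0.05 on counts.

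The annotated starts were then set beside the fold changes; this comparison was chosen after the fold changes were known and is given with no test. RefSeq start windows were found for 55 of the 69 members, 54 of them tested, and 11 members had several windows, up to 6. A member was scored as having a pyrimidine start where any of its windows did. Over all 35116 windows of that table a share of 4.07% had one. This share counts windows, so it is not on the same footing as the members, which were scored by gene. Of the 13 tested members with a pyrimidine start, 11 were called higher, at a median log2 fold change of 0.55. These were EEF1A1, EEF1B2, EEF2, EIF3D, EIF3F, EIF3K, EIF3M, EIF2S3, EIF4A2, EIF4B and EIF2A. The exceptions were EIF2D, a factor that can place initiator tRNA without GTP (0.08), and EIF2S3B. Of the 41 members without one, 5 were called, namely EEF1G, EEF1AKMT4, EIF3C, EIF3J and EIF2S1, at a median over the 41 of 0.07.

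The same split was made over the other protein-coding genes. Of 835 with a pyrimidine start 18.2% were called higher, and of 10843 without one 5.68%. Without the ribosomal protein genes the shares were 13.2% and 5.53%, and among these at 100 CPM or more 19.1% and 4.24%. The start used by the cells was not measured, and the windows show annotated starts only. For EIF3B, EIF2AK3 and EIF4ENIF1 the window lay inside the gene, away from its annotated 5′ end, which was not scored. EEF1B2, counted among the 11 called, has no pyrimidine start at its annotated 5′ end, where the first base is A. Its run lies in a further window inside the gene. EEF1A2, EEF1D, EIF3L, EIF3G, EIF3CL, EIF3E, EIF3H and EIF2S2 were called and had no window in the table. EEF2KMT, EEF1AKMT1, EEF1AKMT3, EIF3A, EIF2AK1 and EIF4EBP1, which were not called, had none either.

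**Figure D5:**
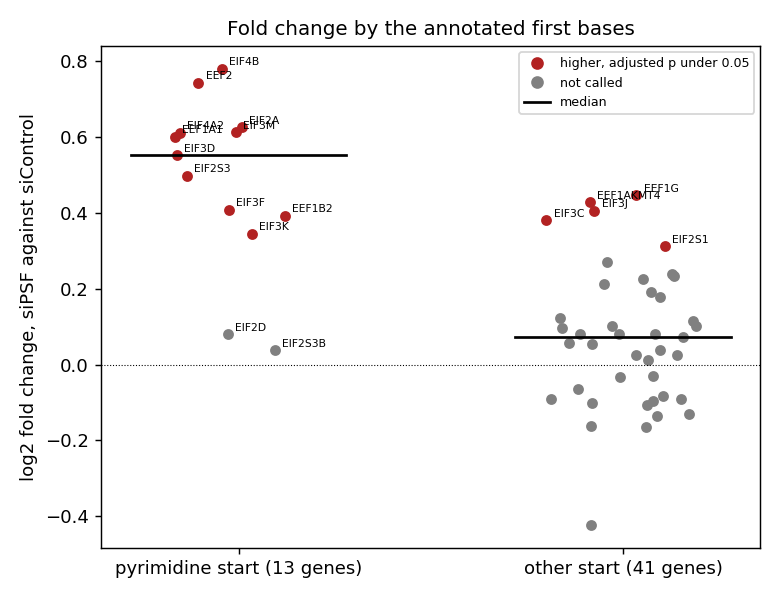
Log2 fold change, siPSF against siControl (y axis), of the 54 tested members with a start window, split by whether any window has a pyrimidine start (x axis). The horizontal spread is only for legibility, red points are called higher and bars are medians. The 13 genes with a pyrimidine start have a median of 0.55 and the 41 others one of 0.07.

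Gene length, with which many changes in these libraries went, did not separate the members. The called members had a median length of 20.4 kb and the others 21.7 kb. Among the long protein-coding genes (at least 100 kb) 25.1% were called lower, with a median log2 fold change of -0.17. The 4 members of that length had none called lower, and EIF3H, at 124 kb, was called higher.

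Of 44 further genes of the translation pathway, named by function outside the symbol rule, 9 rose and 2 fell, beside 6.65% and 8.27% of all tested genes, at a median log2 fold change of 0.09. DPH5, an enzyme that makes the diphthamide residue of eEF2, rose from 57.1 ± 2.36 to 89.0 ± 7.29 CPM (SD, n = 3 each; log2 fold change 0.64, edgeR adjusted p = 0.00064). No other enzyme of diphthamide or hypusine synthesis in the list was called. PABPC1, the main poly(A)-binding protein, rose from 796 ± 48.4 to 1152 ± 108 CPM (0.53, edgeR adjusted p = 0.0030). BZW2, a mimic of eIF5, rose by 0.44 (edgeR adjusted p = 0.0059), and GTPBP2, which helps to rescue stalled ribosomes, fell by 0.43 (edgeR adjusted p = 0.0041). These 4 calls were made again without each library in turn.

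The remaining calls among these genes rested on fewer fits. GSPT2, a release factor, rose by 0.37 (edgeR adjusted p = 0.024), and was lost without siControl replicate 2, siControl replicate 3 or siPSF replicate 1 (adjusted p up to 0.23 over the alternatives). PDCD4, an inhibitor of eIF4A, rose by 0.42 (edgeR adjusted p = 0.027), and was kept only without siControl replicate 3 or siPSF replicate 2 (adjusted p up to 0.25 over the alternatives). MTOR, the kinase that controls translation of pyrimidine-start mRNAs, fell by 0.28 (edgeR adjusted p = 0.035). Its call was lost without siControl replicate 2, siControl replicate 3 or siPSF replicate 1 (adjusted p up to 0.16). At 156 kb MTOR is among the long protein-coding genes, of which 25.1% were called lower. A link between MTOR and the pyrimidine-start genes was not tested. ATF4, the transcription factor made when eIF2 is phosphorylated, rose by 0.28 (edgeR adjusted p = 0.036), a call that none of the fits without a library made again (adjusted p up to 0.10 over the alternatives). MKNK1 and MKNK2, kinases of EIF4E, rose by 0.33 and 0.29 (edgeR adjusted p = 0.031 and 0.048); MKNK1 was kept only without siPSF replicate 3, and MKNK2 in none of these fits (adjusted p up to 0.22 and 0.57 over the alternatives). PAIP2B, an inhibitor of PABPC1, rose by 0.52 (edgeR adjusted p = 0.032). Its call was lost without siControl replicate 2, siControl replicate 3 or siPSF replicate 3 (adjusted p up to 0.22 over the alternatives).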

How the data were processed

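RNA-seq of SH-SY5Y cells treated with siControl or siPSF was analysed as 6 libraries, grouped by the sample labels. The authors deposited 1 table with a read count per gene and library, not normalized, and an FPKM value, which divides the count by exonic length and mapped reads. By the paper's methods the authors removed rRNA reads with Bowtie 2 and mapped with TopHat to hg38, while the submitters' processing notes name Trimmomatic, HISAT2 2.1.0 and StringTie 2.1.3b on GRCh38. The kit is named as stranded in the labels only, and whether strand was used in counting is not given in the sources used here. How reads shared by near-identical genes were assigned is also not given, which bears on EIF3C, EIF3CL and genes with pseudogenes. No count in the table is below 1, so genes without reads in a library are not analysed here. No pair of replicate libraries agreed within sampling noise (chi-square per degree of freedom 22.6 or more).

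Counts were filtered with filterByExpr, scaled by TMM (factors 0.964 to 1.053) and tested with edgeR 4.0.16 in R 4.3.3 without a replicate block; intervals are 95% intervals. The common biological coefficient of variation was 12.6%. The script was tested on simulated data. Alternatives were leaving out each library, a replicate block, DESeq2 size factors, no filter, the Wald test of DESeq2 1.42.0, and limma 3.58.1 on log2(FPKM + 0.5) for genes of a mean FPKM of at least 0.5, as deposited and rescaled to equal sums. For the count of called members, adjusted p limits of 0.01 and 0.1 and adjustment over protein-coding genes were added. Counting EIF3C and EIF3CL once, a fold limit of 1.5 and the search of start windows were chosen after seeing the data. The members and lists were chosen with earlier results of these data known. Named were all called members, the 3 most abundant and the 3 of smallest p in each group, the paralog pairs, and at most 6 called genes of the pathway list; ATF4, MTOR, MKNK1, MKNK2, PAIP2B and further members were named after their values were seen. Figures used matplotlib 3.10.9.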

Additional observations from a re-analysis of the deposited data

How the results depend on the processing

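The count of members called higher was 24, and 19 to 23 in the fits that left out 1 library, 25 with the replicate block, 23 with DESeq2 size factors, 22 without a filter, 24 with the Wald test of DESeq2 and 21 with limma on FPKM. With limma on rescaled FPKM it was 15, with 8 called lower. Called higher there were 7 eIF3 rows, with EIF3C and EIF3CL both among them, and 1 eIF2 subunit. The median of all genes was then 0.17 lower (log2) than in edgeR and 0.10 lower than with limma on FPKM as deposited, and the median of the members stayed 0.13 above that of all genes, against 0.11 in edgeR. An adjusted p under 0.01 left 12 members, and a fold of at least 1.5, chosen after seeing the data, left 9. Over all genes the calls moved more. Without siControl replicate 2 there were 572 higher and 928 lower, without siControl replicate 3 there were 732 and 1022, and without siPSF replicate 1 there were 845 higher; the range over the 6 such fits was 572 to 1405 higher and 928 to 1735 lower. Without siControl replicate 2, 2.87% of all genes were called higher, and 20 members were. With limma on FPKM 736 genes were higher, and on rescaled FPKM 463 were higher and 3409 lower. Of the 44 further translation genes, 3 to 6 were higher and 1 to 2 lower without 1 library, 4 and 5 with limma on FPKM, and 2 and 8 on rescaled FPKM.

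On rescaled FPKM the sign turned in 21 of the 65 members tested there, none of them called in edgeR, and the cause was not tested. On that scale the log2 fold change was -0.077 for EEF1AKNMT, -0.11 for EIF2B4, -0.15 for EIF2AK1, -0.077 for EIF2AK2, -0.15 for EIF4H, -0.094 for EIF1, -0.095 for EIF1B, -0.13 for EIF4E2 and -0.0087 for EIF4E, and it was also below 0 for EEF1E1, EEF1AKMT3, EIF3A, EIF3B, EIF3I, EIF2B1, EIF2B3, EIF2B5, EIF2AK3, EIF2D, EIF5 and EIF5B. With limma on FPKM as deposited it was -0.033 for EIF2AK1, -0.038 for EIF4H and -0.012 for EIF4E2. Without 1 library it ran from -0.0075 to 0.064 for EIF4H, from -0.018 to 0.15 for EIF4E2 and from -0.21 to 0.19 for EIF5A2. The log2 ratio differences that changed sign ran from -0.13 to 0.33 for EIF5A2 to EIF5A, from -0.037 to 0.13 for EIF4G3 to EIF4G1, from -0.21 to 0.027 for EIF4E2 to EIF4E and from -0.084 to 0.067 for EIF1B to EIF1.

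No clear pairing of the libraries by replicate number was seen. Over 14679 genes the deviations of same-numbered siControl and siPSF libraries correlated at -0.020, 0.27 and 0.11, and not every library correlated best with its own number. With 3 libraries in each group this comparison cannot exclude a pairing. The replicate block called 25 members, EIF1AX (adjusted p = 0.035) in addition to the 24.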

Other observations

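Of 58 rows that carry a member's symbol followed by P and a number, 38 were tested, 10 were called higher (26.3%, beside 6.65% of all tested genes) and none lower (edgeR, adjusted p under 0.05), at a median log2 fold change of 0.55. The fitted sign was that of the parent gene in 31 rows and the opposite in 7, among them EIF5AP3, which was called higher at 2.30 beside -0.08 for EIF5A and was chosen after its values were seen. The 22 EEF1A1 pseudogene rows held 15.3% of the CPM of EEF1A1, with 1183 CPM in siControl and 1842 CPM in siPSF. Of the 13 that were tested, 5 were called higher, at a median of 0.66, beside 0.60 for EEF1A1. All 3 tested EIF4B pseudogene rows were called higher, at a median of 0.89, beside 0.78 for EIF4B. Whether these rows hold reads of the parent genes was not tested.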
